A study of Mus musculus with 14 samples.

Results

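The proteasome subunits and regulators described here are the genes whose symbol begins with Psm, a letter from a to g and a digit. Each was represented by the probe set of highest mean signal over the 14 arrays, counting only probe sets that the platform assigns to a single gene. This gave 48 genes, with 85 probe sets, out of 12393 genes measured. 46 of them are proteasome subunits, assembly factors or regulators: 8 genes of the alpha ring of the core, 7 constitutive genes of its beta ring, 3 immunoproteasome genes, 6 genes of the ATPase ring, 3 non-ATPase genes of the base, 8 lid genes, 7 assembly chaperones, and 4 activators or inhibitors. The other 2, Psmc3ip and Psme3ip1, share the symbol pattern but encode interacting proteins, and they are kept apart. Psme2 is no member because its probe set also carries the symbol Psme2b.

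Total RNA labelled as striatum was measured on Affymetrix arrays in R6/2 mice and wild-type mice 6 weeks old, all on a mixed CBA and C57BL/6 background. R6/2 mice express the first exon of human HTT with a long CAG repeat from the human gene's own promoter, and serve as a fast model of Huntington disease. Every animal, wild-type included, had been given normal saline 30 to 60 minutes before death, as a control in 1 of 2 drug studies. The titles divide the arrays into a cohort named M.C, with 4 R6/2 arrays (replicates 1 to 4) and 4 wild-type arrays (replicates 1 to 4), and a cohort named Mith, with 3 R6/2 arrays (replicates 5 to 7) and 3 wild-type arrays (replicates 5 to 7). Nothing in the labels says that each array is its own mouse, so the p-values measure the spread between arrays, and the number of arrays limits the precision. 

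The proteasome is the protease that degrades most short-lived, damaged or ubiquitin-tagged proteins in the cytosol and nucleus. Its core is a barrel of stacked alpha and beta rings with the active sites inside, and a regulatory particle on its end binds ubiquitin chains (base and lid), unfolds the substrate (ATPase ring) and feeds it into the barrel. Interferon exchanges the catalytic beta subunits for the immunoproteasome forms Psmb8, Psmb9 and Psmb10 and induces the activator Psme1, which favours peptides for antigen presentation. When proteasome activity is short, the transcription factor Nfe2l1 raises the subunit genes together. Mutant huntingtin fragments are ubiquitinated and gather in inclusions that contain proteasomes, so this system is often examined in Huntington disease models.

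The promoters of 4 members are shown because, among the members with a window in the table used, these have the smallest p by genotype (Psmb10, Psme1) and by cohort (Psmd1, Psma6) in the results that follow. Each is the RefSeq window of build GRCm38.p6 from 250 bases before to 50 bases after the annotated start. Capitals mark matches, on either strand, to the antioxidant response core TGACNNNGC or its looser form TGANNNNGC, which Nfe2l1 and Nfe2l2 recognise, to CCAAT, recognised by NF-Y, or to GAAANNGAA, the centre of interferon response elements. Psmb10 lies at chr8:105938343-105938642 on the minus strand and has none of these. Psme1, at chr14:55578244-55578543 on the plus strand, has 1 GAAANNGAA. Psmd1, at chr1:86064369-86064668 on the plus strand, has 1 TGANNNNGC at position -224 from the start. Psma6, at chr12:55383972-55384271 on the plus strand, has 1 TGANNNNGC and 2 CCAAT, and it is the first of 2 windows listed for that gene.
Psmb10: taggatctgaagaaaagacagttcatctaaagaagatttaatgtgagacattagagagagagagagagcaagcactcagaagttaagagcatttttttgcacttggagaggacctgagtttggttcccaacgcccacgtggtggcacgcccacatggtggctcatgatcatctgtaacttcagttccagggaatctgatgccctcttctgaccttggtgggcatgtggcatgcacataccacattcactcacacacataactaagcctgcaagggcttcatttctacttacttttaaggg
Psme1: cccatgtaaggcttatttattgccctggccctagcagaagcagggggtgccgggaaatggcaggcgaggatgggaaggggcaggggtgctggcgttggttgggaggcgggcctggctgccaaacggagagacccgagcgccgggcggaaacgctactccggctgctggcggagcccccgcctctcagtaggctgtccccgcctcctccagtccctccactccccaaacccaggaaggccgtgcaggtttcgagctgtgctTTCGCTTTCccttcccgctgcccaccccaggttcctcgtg
Psmd1: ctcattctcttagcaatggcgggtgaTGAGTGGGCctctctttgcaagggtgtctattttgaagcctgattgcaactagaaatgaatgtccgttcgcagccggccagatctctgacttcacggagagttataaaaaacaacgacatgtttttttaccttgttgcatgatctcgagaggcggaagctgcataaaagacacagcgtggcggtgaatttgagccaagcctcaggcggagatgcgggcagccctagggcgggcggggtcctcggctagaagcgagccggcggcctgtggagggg
Psma6: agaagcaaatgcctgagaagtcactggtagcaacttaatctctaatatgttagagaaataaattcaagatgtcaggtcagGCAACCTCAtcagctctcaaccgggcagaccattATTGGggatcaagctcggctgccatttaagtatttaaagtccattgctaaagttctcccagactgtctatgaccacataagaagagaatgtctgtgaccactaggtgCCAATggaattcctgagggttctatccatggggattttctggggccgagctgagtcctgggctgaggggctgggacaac

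A window was found for 38 of the 46 genes and for 27025 mouse genes in all. Every TGACNNNGC is also a TGANNNNGC. A gene with several windows was counted when any of them had a match. The strict form was present in 15.8% of the 38 proteasome genes and in 14% of all genes with a window, and the looser form in 55.3% and 45.0%. Among the 11 core genes with a window, 8 had the looser form, which is 72.7%. CCAAT was found in 34.2% of these proteasome genes and 41.1% of all genes with a window, with 54.5% in the core genes. The interferon response letters were found in 7 of 38 proteasome genes, 18.4%, and in 9.8% of all genes with a window. These shares describe letters in a 300 base window and were not tested.

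The arrays and tissue were described as follows. The 7 measured marker genes of striatal projection neurons had mean log2 signals from 9.24 (Drd2) to 11.44 (Penk), and 6 of the 7 fell in R6/2, with a median log2 difference of -0.69. R6/2 replicate 4 stood apart from its cohort: its mean Spearman correlation with the other M.C arrays was 0.981, where the other 13 arrays had 0.986 to 0.992 within their cohort. The Actb control probe sets at the 3′ end exceeded those at the 5′ end, a gap that grows as RNA degrades, by 0.608 ± 0.181 (SD) on the 7 R6/2 arrays and by 0.373 ± 0.143 (SD) on the 7 wild-type arrays. The exact two-sided permutation p = 0.0210 over all arrays and 0.0186 within cohorts.

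The first comparison asked whether the proteasome genes differ by genotype in the striatum. None of the 46 genes passed. A call here means a Benjamini-Hochberg adjusted p under 0.05 from limma over 22626 probe sets, and 2.55% of all probe sets were called. The log2 differences, taken as R6/2 minus wild-type in a model that also holds the cohort, ran from -0.08 (Psmb2, a core beta subunit) to 0.24 (Psmb3, another one), and their median was 0.07, or 105% of the wild-type signal. The median over all probe sets was 0.01. The difference was above 0 for 38 of 46 genes, 82.6%, where 54.9% of all probe sets were above 0. At an unadjusted p under 0.05 there were 6 genes, Psma5, Psma7, Psmb3, Psmb10, Psmd9 and Psme1, all higher in R6/2. Over all probe sets 15.2% reached that level and 5.69% did so on the higher side. The 95% intervals of all 46 differences lay between -0.29 and 0.48, so a difference of 0.5 in either direction is outside every interval of this fit, which assumes 1 difference for both cohorts. In the fits of each cohort alone, 45 of 46 intervals (M.C) and 29 of 46 (Mith) lay within 0.5 of 0. The lowest end was -0.56 in M.C and the highest was 0.85 in Mith. RNA from bulk striatum cannot tell fewer cells of a type from less RNA per cell.

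**Figure D1:**
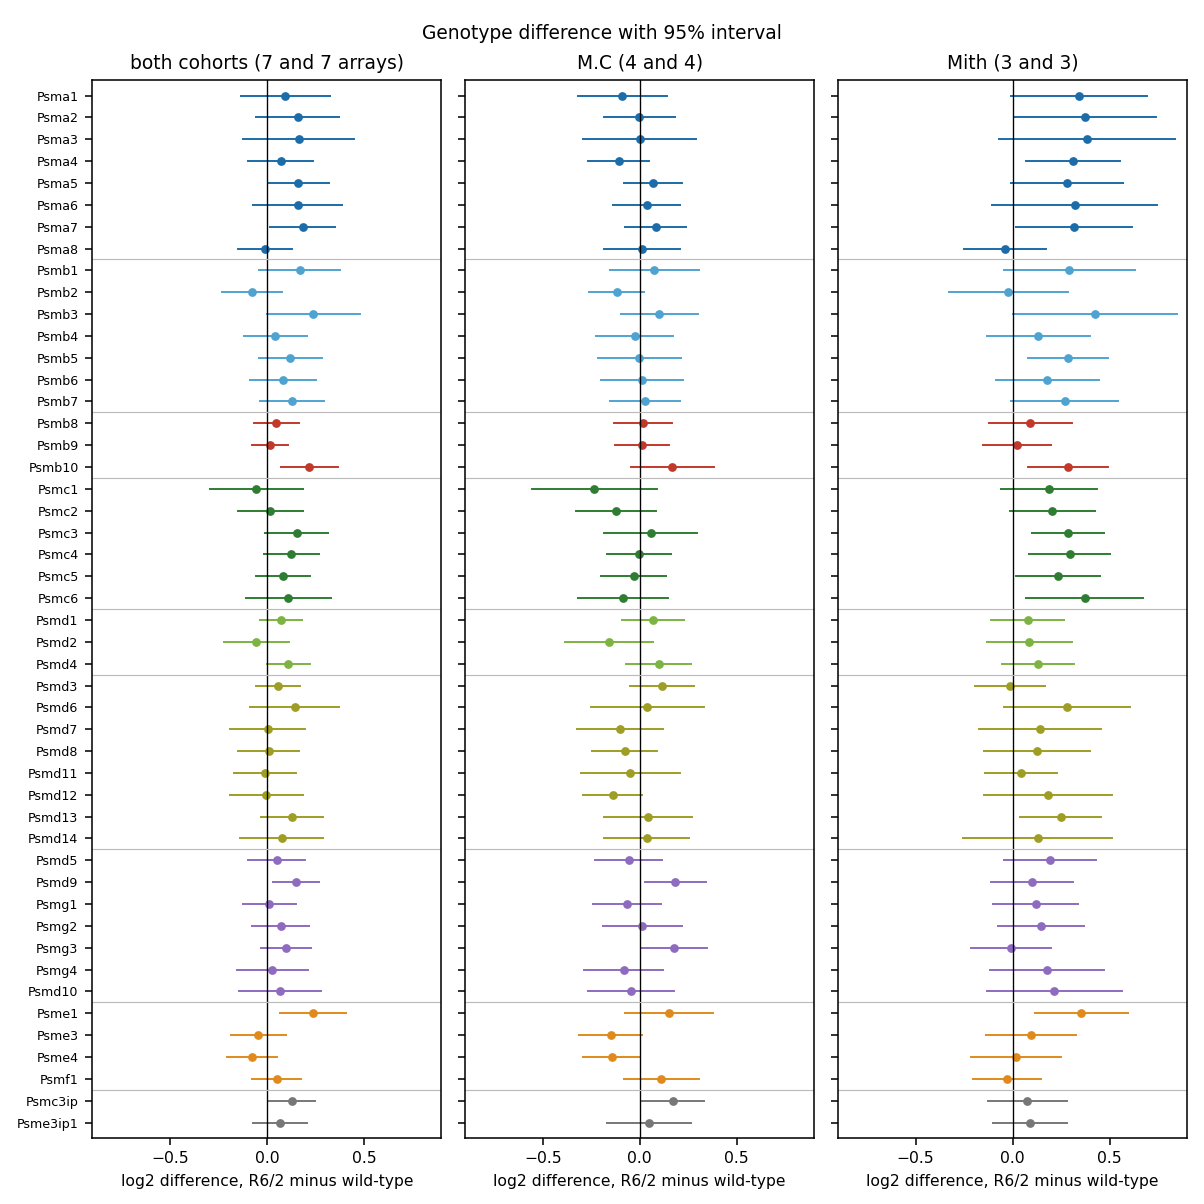
Log2 difference, R6/2 minus wild-type, for each proteasome gene (points) with its 95% interval (lines), over both cohorts, in M.C and in Mith. Colours mark the role classes in the order of the text, and the last 2 genes are not subunits. Intervals over both cohorts stay between -0.29 and 0.48, M.C points scatter around 0, and 41 of 46 Mith points are above 0.

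Each cohort was then fitted alone. In M.C the median was 0.01, 23 of 46 genes were above 0, and 0 were called where 2.47% of all probe sets were. Only Psmd9 and Psmg3, assembly chaperones, had an unadjusted p under 0.05 there, both higher in R6/2, against 16.7% of all probe sets. In Mith the median was 0.18, or 114% of wild-type, and 41 of 46 genes were above 0, 89.1% against 50.4% of all probe sets. The Mith fit called 0 members and 0% of all probe sets. Its unadjusted p was under 0.05 for 12 members, all higher in R6/2, against 8.87% of all probe sets. The difference between the cohorts was tested as an interaction, M.C minus Mith, and again 0 members and 0% of all probe sets were called. There 6 members had an unadjusted p under 0.05, all with the smaller difference in M.C, against 9.78% of all probe sets. The median interaction was -0.22.

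Markers of neighbouring tissue and of other cells were read beside these values. The 5 thalamic genes, which mark a region outside the striatum, had a median R6/2 minus wild-type difference of -0.56 in Mith and 0.01 in M.C, with 0 called over both cohorts. Their mean log2 level, each gene centred on its mean over all arrays, was 0.31, -0.23 and 0.14 in Mith R6/2 replicates 5 to 7 and 0.95, 0.22 and 0.96 in wild-type replicates 5 to 7. Mature oligodendrocyte genes had a median of -0.34 over both cohorts, -0.34 in M.C and -0.42 in Mith. Of these 8 genes 4 were called lower in R6/2 (Mag, Mobp, Cldn11 and Ugt8a), where 496 of all 22626 probe sets were. The mean level of the 8 in Mith was 0.06 to 0.40 in R6/2 and 0.54 to 0.72 in wild-type, without overlap. Of 7 astrocyte genes 1, Gja1, was called lower, with a median of -0.27 over both cohorts and -0.17 in Mith. Of 3 choroid plexus genes 0 were called by genotype. Ttr, 1 of them, varied within groups, from 8.4 to 12.7 in M.C wild-type and from 9.7 to 13.4 in Mith wild-type. The part of all these markers in the proteasome values was not tested.

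For some genes the arrays did not overlap between genotypes, more often in Mith than in M.C. In Mith every R6/2 array lay above every wild-type array for 8 of 46 genes (Psmb5, Psmb10, Psmc3, Psmc4, Psmc5, Psmd4, Psmd13 and Psme1), where 6.61% of all probe sets showed this order, and for 0 genes the order was reversed, against 6.34%. In M.C it held for 1 gene, Psmd9, against 4.84%, and R6/2 lay wholly below for 2 genes, Psme3 and Psme4, against 6.33%. Psmb10 and Psme1 are thus in the Mith group, and no gene had this order in both cohorts.

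**Figure D2:**
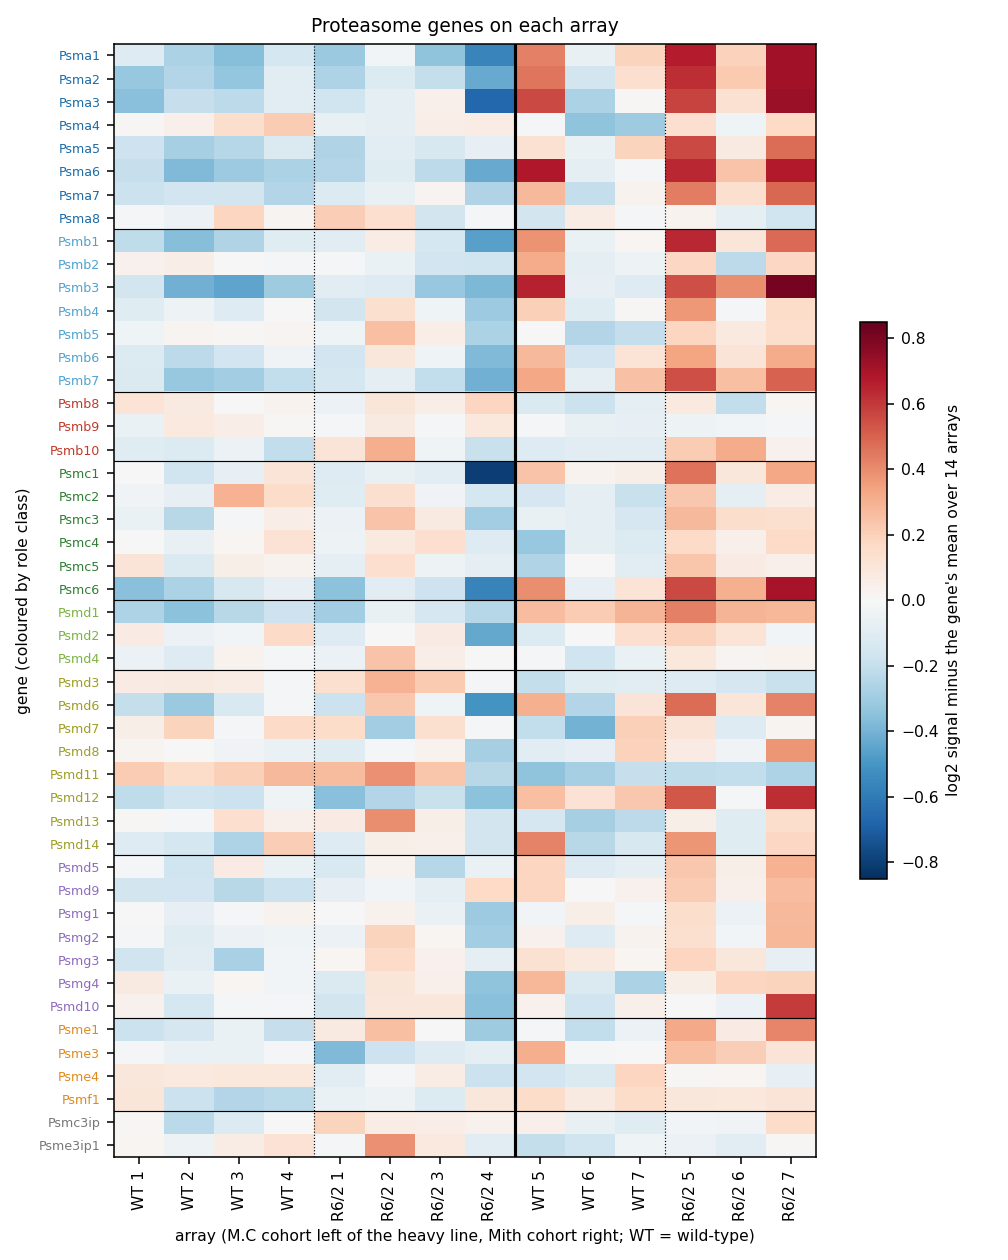
Log2 signal of each gene on each array minus the gene's mean over the 14 arrays, red above and blue below, with M.C left and Mith right of the heavy line and rows grouped by role. Core genes (top) are red in R6/2 replicates 5 and 7 and wild-type replicate 5, and R6/2 replicate 4 has the darkest blue cell, Psmc1.

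The core alpha ring gates the barrel. Its 8 genes had a median difference of 0.16 over both cohorts, 0.01 in M.C and 0.32 in Mith, and 7 of 8 were above 0 over both. Psma7 had the smallest p of the ring. Its log2 signals in M.C were 8.90, 8.95, 9.04 and 8.76 in R6/2 and 8.84, 8.86, 8.86 and 8.77 in wild-type. In Mith they were 9.45, 9.16 and 9.50 in R6/2 and 9.29, 8.82 and 9.05 in wild-type. The genotypes overlap in both cohorts, and wild-type replicate 5 lies above R6/2 replicate 6. The difference was 0.18 ± 0.08 (SE), adjusted p = 0.265. The other probe set of Psma7 gave 0.01 over both cohorts, -0.13 in M.C and 0.19 in Mith. Psma8, the form of the ring used in the testis, was at -0.01 ± 0.06.

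The constitutive beta ring holds the active sites in Psmb5 (chymotrypsin-like), Psmb6 (caspase-like) and Psmb7 (trypsin-like). Its 7 genes had a median of 0.12 over both cohorts, 0.01 in M.C and 0.27 in Mith. Psmb5, Psmb6 and Psmb7 were at 0.12 ± 0.08, 0.08 ± 0.08 and 0.13 ± 0.08. Psmb3, a subunit without an active site, had the smallest p of the ring. In M.C its R6/2 signals were 9.09, 9.07, 8.86 and 8.80 and its wild-type signals 9.03, 8.77, 8.73 and 8.89. In Mith R6/2 had 9.73, 9.58 and 9.999 and wild-type 9.84, 9.12 and 9.08. Wild-type replicate 5 again sits among the R6/2 arrays. The difference was 0.24 ± 0.11, adjusted p = 0.321. The M.C value was 0.10 and the Mith value 0.42.

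Arrays of the same genotype differed in the level of the core genes. The mean of the 15 core genes, each centred on its own mean, was 0.43 in R6/2 replicate 5, 0.11 in replicate 6 and 0.43 in replicate 7, and 0.30, -0.13 and 0.02 in wild-type replicates 5, 6 and 7. In M.C it ran from -0.19 to -0.09 in wild-type and from -0.32 to -0.01 in R6/2, with replicate 4 the lowest. The high and low Mith arrays thus include both genotypes. The Actb gap was 0.567, 0.640 and 0.741 in these Mith R6/2 arrays and 0.613, 0.476 and 0.227 in the wild-type ones. With that gap as a covariate the medians over both cohorts were 0.01 for the alpha ring and -0.01 for the beta ring. Leaving out 1 Mith array moved the Mith median of the core genes between 0.20, when wild-type replicate 6 was dropped, and 0.43, when R6/2 replicate 6 was.

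**Figure D3:**
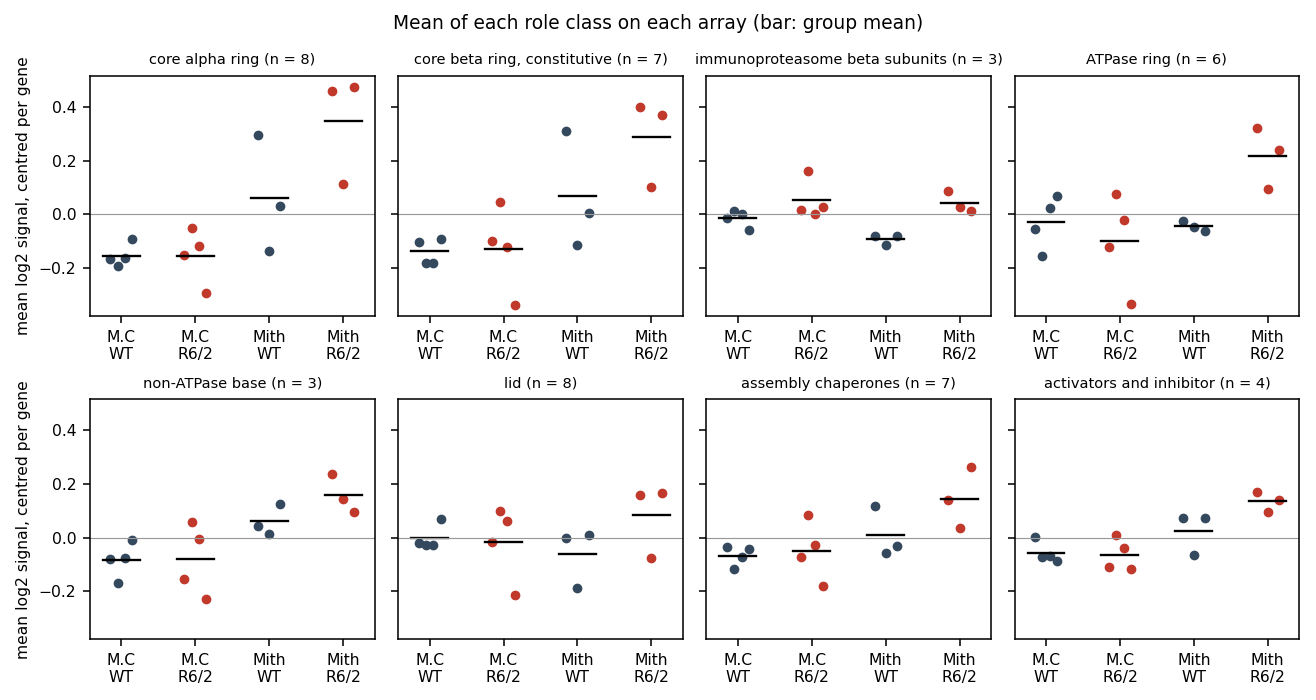
Mean log2 signal of each role class on each array, each gene centred on its own mean over 14 arrays, by cohort and genotype (blue wild-type, red R6/2). Bars are group means. The core classes spread widely within Mith, while the ATPase ring has its 3 Mith wild-type arrays between -0.06 and -0.02 and its 3 R6/2 arrays between 0.10 and 0.32.

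None of the 3 immunoproteasome subunits was called, and their median was 0.05 over both cohorts, 0.02 in M.C and 0.09 in Mith. Psmb8, which replaces Psmb5, had 6.59, 6.74, 6.70 and 6.82 in M.C R6/2 and 6.76, 6.72, 6.64 and 6.67 in M.C wild-type. In Mith it had 6.72, 6.43 and 6.66 in R6/2 and 6.52, 6.46 and 6.56 in wild-type. The genotypes overlap in both cohorts, and the difference was 0.05 ± 0.06, adjusted p = 0.736. Psmb9, which replaces Psmb6, had 7.14, 7.22, 7.13 and 7.24 in M.C R6/2 and 7.096, 7.23, 7.21 and 7.16 in M.C wild-type, and 7.11, 7.13 and 7.13 in Mith R6/2 and 7.13, 7.08 and 7.08 in Mith wild-type. It varied little and its difference was 0.02 ± 0.04, with a 95% interval from -0.08 to 0.11.

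Psmb10, which replaces Psmb7, had the smallest p of all 46 genes. Its log2 signals were 8.57, 8.77, 8.43 and 8.28 in M.C R6/2, against 8.36, 8.35, 8.41 and 8.26 in M.C wild-type. In Mith they were 8.68, 8.78 and 8.50 in R6/2 and 8.36, 8.37 and 8.37 in wild-type. All R6/2 arrays but replicate 4 lie above all wild-type arrays. The difference was 0.22 ± 0.07, 116% of wild-type, adjusted p = 0.114, so it did not pass. The cohorts gave 0.17 ± 0.10 (M.C) and 0.29 ± 0.09 (Mith).

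Psme1, a subunit of the ring activator that interferon induces, behaved alike. In M.C its signals were 8.04, 8.22, 7.97 and 7.66 in R6/2 and 7.78, 7.82, 7.91 and 7.77 in wild-type. In Mith they were 8.28, 8.03 and 8.38 in R6/2 and 7.95, 7.75 and 7.91 in wild-type. All R6/2 arrays but replicate 4 lie above all wild-type arrays of their cohort, and replicate 4 is the lowest of all 14. The difference was 0.24 ± 0.08, 118% of wild-type, adjusted p = 0.140. Its partner in the ring, Psme2, shares a probe set with Psme2b, and that probe set gave 0.16 ± 0.05, adjusted p = 0.128.

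Both results turned on R6/2 replicate 4. Its Actb gap was 0.277, where the other R6/2 arrays had 0.539 to 0.852 and the wild-type arrays 0.199 to 0.613. Leaving this array out therefore also makes the genotypes differ more in that gap. Without replicate 4 limma called 2 of the 46 genes, Psmb10 at 0.27 ± 0.06 (adjusted p = 0.0237) and Psme1 at 0.30 ± 0.06 (adjusted p = 0.0181), both higher, where 3.63% of all probe sets were called and 0.875% were called higher. In that fit 42 of 46 genes were above 0 and 14 had an unadjusted p under 0.05. The median of the 46 was 0.11, against 0.01 over all probe sets. The shares of all probe sets at those levels were not computed for that fit, so the counts have no background. With all arrays kept but weighted by their quality, the same 2 genes were called (adjusted p = 0.0439 for Psmb10 and 0.0406 for Psme1), and 5.89% of all probe sets. With the Actb gap between 3′ and 5′ ends in the model they were at 0.12 ± 0.08 (adjusted p = 0.628) and 0.10 ± 0.09 (adjusted p = 0.726), and 0.248% of all probe sets were called. The median over the 46 genes was then -0.02, with 20 above 0, and the median over all probe sets was -0.003. Microglia markers, as cells that carry the immunoproteasome, had 0 of 12 called and a median of -0.02, and their mean level ran from -0.10 to 0.08 in R6/2 arrays and from -0.06 to 0.11 in wild-type arrays.

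**Figure D4:**
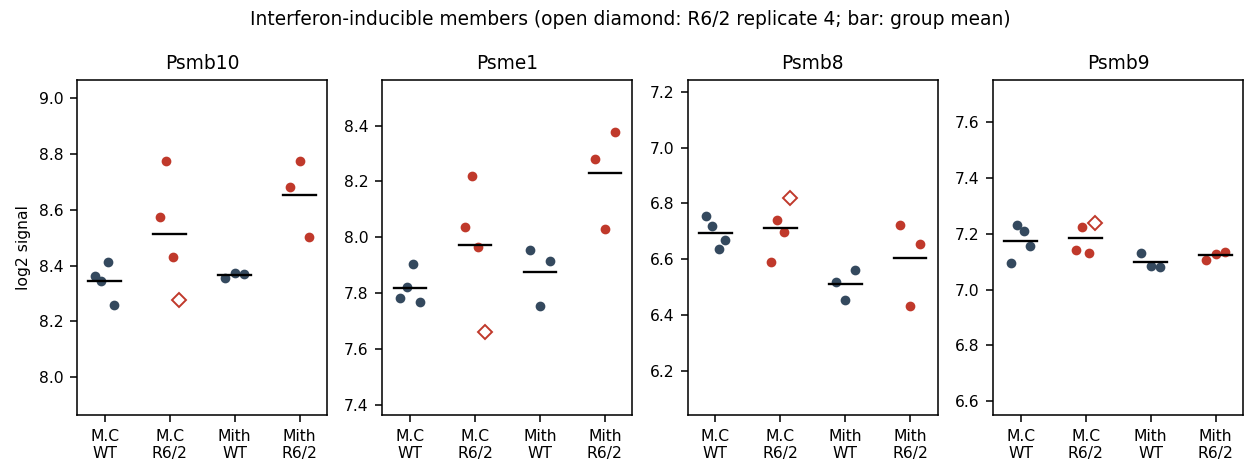
Log2 signal on each array of 4 interferon-inducible proteasome genes, by cohort and genotype, with bars at group means and R6/2 replicate 4 as an open diamond. For Psmb10 and Psme1 every other R6/2 array is above every wild-type array of its cohort, while Psmb8 and Psmb9 overlap. The axes of the panels start at different levels and have the same span.

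The ATPase ring, whose 6 subunits Psmc1 to Psmc6 unfold the substrate, had medians of 0.10 over both cohorts, -0.06 in M.C and 0.26 in Mith. In Mith 4 of 6 had an unadjusted p under 0.05, against 8.87% of all probe sets. The same number had one in the interaction, against 9.78%. In either fit 0 were called, as over all probe sets. Psmc3 had the smallest p by genotype. Its signals were 9.005, 9.30, 9.13 and 8.76 in M.C R6/2 and 8.997, 8.82, 9.04 and 9.11 in M.C wild-type. In Mith they were 9.33, 9.20 and 9.19 in R6/2 and 8.99, 8.97 and 8.91 in wild-type, without overlap. The difference was 0.15 ± 0.08, adjusted p = 0.357. Without any 1 Mith array the Mith median of the ring stayed between 0.21 and 0.30.

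Psmc1 stood out in 1 array. Its M.C signals were 8.43, 8.47, 8.44 and 7.74 in R6/2 and 8.54, 8.37, 8.47 and 8.65 in wild-type, and its Mith signals 9.002, 8.64 and 8.87 in R6/2 and 8.78, 8.57 and 8.59 in wild-type. R6/2 replicate 4 is far below all the others. The M.C difference was -0.23 ± 0.15, adjusted p = 0.454. With the Actb covariate it was -0.55 ± 0.12 and called (adjusted p = 0.0260), the only member called in M.C under that fit, where 5.43% of all probe sets were. R6/2 replicate 4 also has the smallest Actb gap of the M.C R6/2 arrays, 0.277 against 0.539 to 0.852. The part of this array in the call was not tested. A dimmer probe set of Psmc1 (mean 4.58) gave 0.23 ± 0.06 in M.C without the covariate, adjusted p = 0.100. Over both cohorts the probe set used was at -0.05 ± 0.11.

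The rest of the regulatory particle showed smaller values. The non-ATPase base genes Psmd1, Psmd2 and Psmd4 had a median of 0.07 over both cohorts, and Psmd4, a receptor for ubiquitin chains, had the smallest p among them. Psmd4 had 9.19, 9.49, 9.30 and 9.24 in M.C R6/2 and 9.20, 9.14, 9.28 and 9.23 in M.C wild-type, and in Mith 9.34, 9.27 and 9.28 in R6/2 and 9.23, 9.08 and 9.19 in wild-type. On this probe set only the Mith arrays part by genotype, and the difference was 0.11 ± 0.05, adjusted p = 0.331. Its other probe sets gave -0.03 and 0.03 over both cohorts, and -0.12 and 0.09 in Mith. The lid, a scaffold around the deubiquitinase Psmd14, had a median of 0.03, and Psmd14 itself was at 0.08 ± 0.10. The lid scaffold gene Psmd13 had the smallest p of the lid. Psmd13 had 8.64, 8.97, 8.62 and 8.41 in M.C R6/2 and 8.58, 8.56, 8.71 and 8.62 in M.C wild-type, and in Mith 8.62, 8.47 and 8.72 in R6/2 and 8.43, 8.29 and 8.35 in wild-type. It too parts only in Mith, with a difference over both cohorts of 0.13 ± 0.08, adjusted p = 0.443.

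The assembly chaperones pair up core and base subunits before the particle closes. All 7 were above 0 over both cohorts, with a median of 0.07. Psmd9, which assists the base, had 7.56, 7.60, 7.54 and 7.80 in M.C R6/2 and 7.47, 7.46, 7.39 and 7.44 in M.C wild-type. In Mith it had 7.84, 7.67 and 7.89 in R6/2 and 7.81, 7.62 and 7.66 in wild-type. It is the 1 member whose R6/2 arrays all lie above wild-type in M.C, replicate 4 being the highest. The difference was 0.15 ± 0.06, adjusted p = 0.197. M.C gave 0.18 and Mith 0.10. The other probe set of Psmd9 gave 0.01 over both cohorts, 0.08 in M.C and -0.09 in Mith.

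Among the other activators and the inhibitor no common direction was seen. Psme3, the nuclear ring activator, had 7.39, 7.59, 7.66 and 7.69 in M.C R6/2 and 7.75, 7.71, 7.71 and 7.76 in M.C wild-type, without overlap, and in Mith 8.02, 7.98 and 7.87 in R6/2 and 8.07, 7.76 and 7.76 in wild-type. The difference was -0.04 ± 0.07 for this probe set. Of its 2 other probe sets 1 gave 0.22 (adjusted p = 0.0443), higher in R6/2. It was the only call by genotype among the 37 other probe sets of proteasome genes, 2.7% against 2.55% of all probe sets. That share is near the background. Dropping 1 array at a time ended that call in 11 of 14 fits, with adjusted p from 0.0145 to 0.111. The probe sets of Psme3 thus do not share a sign, and the difference on the probe set used is smaller in size than its SE.

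Psme4, an activator that caps the barrel without ubiquitin, had 7.06, 7.14, 7.202 and 6.96 in M.C R6/2 and 7.24, 7.23, 7.23 and 7.23 in M.C wild-type. In Mith it had 7.15, 7.16 and 7.07 in R6/2 and 6.98, 7.02 and 7.33 in wild-type. On this probe set it is lower in R6/2 on every M.C array and overlaps in Mith, with a difference of -0.07 ± 0.06 over both cohorts. The other probe sets of Psme4 gave 0.12 and 0.02 in M.C, and 0.09 and 0.02 over both cohorts. The inhibitor Psmf1 had 8.67, 8.68, 8.61 and 8.82 in M.C R6/2 and 8.82, 8.54, 8.47 and 8.49 in M.C wild-type, and 8.82, 8.82 and 8.83 in Mith R6/2 and 8.88, 8.80 and 8.88 in Mith wild-type. Its genotypes overlap in both cohorts, and the difference was 0.05 ± 0.06. Of the genes that only share the symbol pattern, Psmc3ip was at 0.13 ± 0.06 (adjusted p = 0.270) and Psme3ip1 at 0.07 ± 0.07.

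The second comparison asked how the genes vary between the cohorts, M.C minus Mith with genotype as a term. Here 20 of 46 genes were called, 18 lower in M.C and 2 higher. Among all probe sets 17% were called lower and 15.3% higher, and with 1 probe set per gene 15.3% were lower and 16% higher. The core carried 10 of the 18 falls, 10 of its 15 genes, and 0 core genes were called higher. The medians were -0.45 for the alpha ring, -0.29 for the beta ring, 0.07 for the immunoproteasome, -0.04 for the ATPase ring, -0.09 for the non-ATPase base, -0.01 for the lid, -0.13 for the chaperones and -0.18 for activators and inhibitor. The labels do not say how the cohorts differ apart from the drug study they served. In the wild-type arrays alone, 9 of the 46 were called, 19.6% against 14.2% of all probe sets in that fit, 6 of them lower in M.C and 3 higher.

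Psmd1, the large scaffold of the base, had the smallest p. Its log2 signals in M.C ran from 8.80 to 9.09 with a median of 8.91, and in Mith from 9.37 to 9.58 with a median of 9.44. The cohorts do not overlap, and M.C was at 69.9% of Mith (-0.52 ± 0.05, adjusted p = 3.42e-06). Every M.C array lay below every Mith array for 6 genes, Psma5, Psma6, Psmc6, Psmd1, Psmd12 and Psme3, against 4.96% of all probe sets, and above for 1, Psmd3, against 4.02%.

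The alpha ring genes called were Psma1, Psma2, Psma3, Psma5, Psma6 and Psma7. Psma6 ran from 9.12 to 9.45 (median 9.29) in M.C and from 9.48 to 10.23 (median 9.99) in Mith, a difference of -0.63 ± 0.11, adjusted p = 4.22e-04. Psma1 ran from 7.30 to 7.83 (median 7.56) and from 7.79 to 8.57 (median 8.17). The ranges of Psma1 meet only at their ends. Psma2 ran from 9.12 to 9.45 (median 9.29) and from 9.39 to 10.26 (median 9.88), and Psma3 from 8.61 to 9.33 (median 9.10) and from 9.01 to 10.02 (median 9.63). Psma5 ran from 9.01 to 9.23 (median 9.14) and from 9.24 to 9.86 (median 9.45), and Psma7 from 8.76 to 9.04 (median 8.86) and from 8.82 to 9.50 (median 9.22). In all 6 the Mith range is the wider one, and the differences ran from -0.63 to -0.34. Psma4, the remaining somatic alpha gene, was at 0.11 ± 0.08 and not called.

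In the beta ring Psmb1, Psmb3, Psmb6 and Psmb7 were called. Psmb3 ran from 8.73 to 9.09 (median 8.87) in M.C and from 9.08 to 9.999 (median 9.66) in Mith, a difference of -0.65 ± 0.11, adjusted p = 4.33e-04. Psmb7 ran from 10.09 to 10.42 (median 10.28) and from 10.41 to 11.04 (median 10.78), with the smallest p of the core (adjusted p = 1.44e-04), and Psmb1 from 9.36 to 9.89 (median 9.64) and from 9.76 to 10.46 (median 10.06). Psmb6 ran from 9.14 to 9.61 (median 9.38) and from 9.35 to 9.85 (median 9.71). All 4 overlap at the edges of their ranges, Psmb6 the most. The third catalytic gene, Psmb5, was at 0.01 ± 0.08, so of the constitutive catalytic subunits Psmb6 and Psmb7 were called and Psmb5 was not. The difference between these genes was not tested.

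In the regulatory particle calls went both ways. Psmd11, a lid scaffold, was higher in M.C, from 9.68 to 10.30 (median 10.14) against 9.57 to 9.72 (median 9.67), a difference of 0.44 ± 0.08, adjusted p = 4.38e-04. Psmd3, another lid scaffold, ran from 8.93 to 9.24 (median 9.02) against 8.74 to 8.85 (median 8.82), a difference of 0.25 ± 0.05. Psmd12 ran from 8.10 to 8.43 (median 8.26) against 8.45 to 9.09 (median 8.70), a difference of -0.51 ± 0.09. So subunits of the same lid were called in opposite directions. The lid gene Psmd6 ran from 9.03 to 9.77 (median 9.39) against 9.29 to 10.02 (median 9.75), and the ATPases Psmc1 and Psmc6 from 7.74 to 8.65 (median 8.46) against 8.57 to 9.002 (median 8.71) and from 8.06 to 8.56 (median 8.41) against 8.56 to 9.33 (median 8.98). Psmd6 and Psmc1 overlap between cohorts, and they are the 2 of the 20 genes that lost the call when an array was left out. Psmc1 lost it without R6/2 replicate 5 (-0.29) or 7 (-0.32), and Psmd6 without R6/2 replicate 5 (-0.29), R6/2 replicate 7 (-0.30) or wild-type replicate 5 (-0.30).

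The remaining calls were among the chaperones and regulators. Psmd9 ran from 7.39 to 7.80 (median 7.51) in M.C and from 7.62 to 7.89 (median 7.74) in Mith. Psme3 ran from 7.39 to 7.76 (median 7.70) and from 7.76 to 8.07 (median 7.92), and Psmf1 from 8.47 to 8.82 (median 8.64) and from 8.80 to 8.88 (median 8.83). These 3 differences, -0.22, -0.25 and -0.20, are the smallest among the genes called lower in M.C. Psmb8, Psmb9 and Psmb10 were not called (0.15, 0.07 and -0.08).

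**Figure D5:**
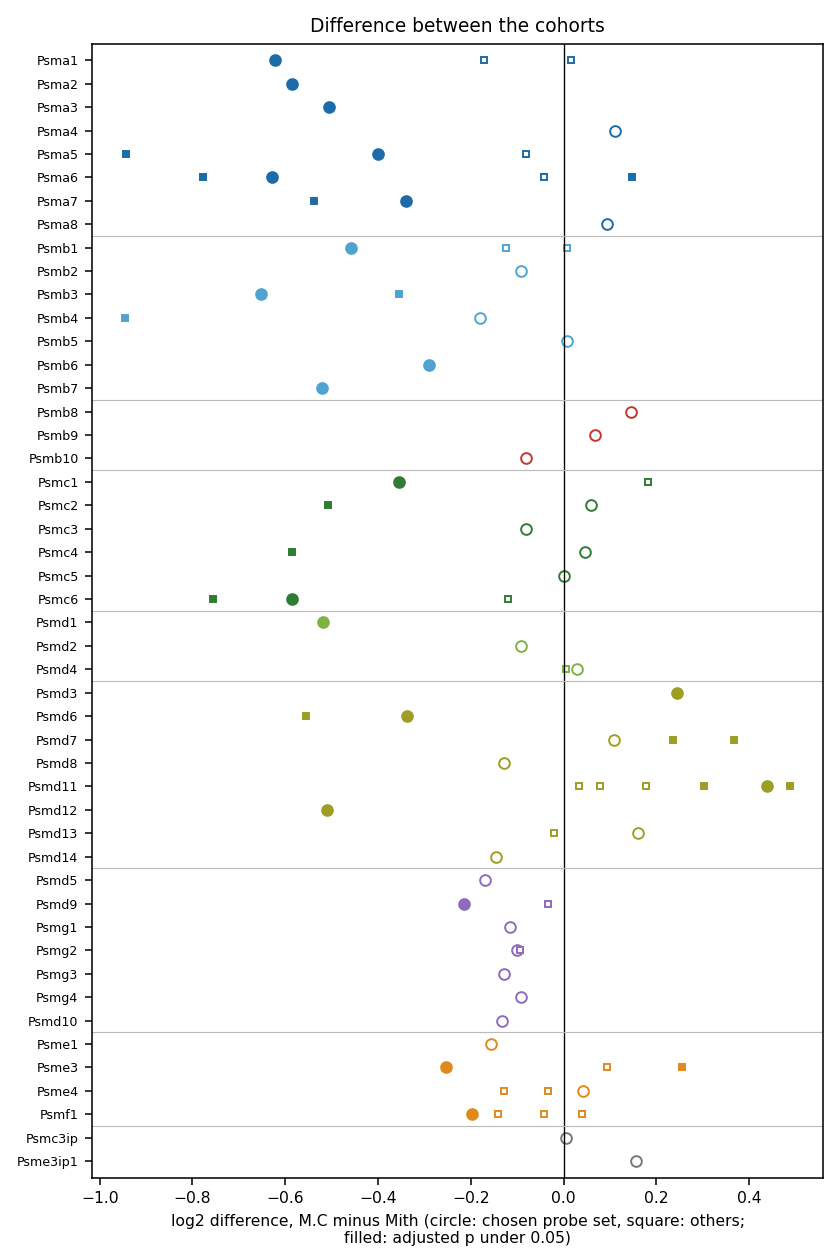
Log2 difference, M.C minus Mith, for each gene: circles are the probe sets used, squares the other probe sets of the gene, and filled symbols have an adjusted p under 0.05. Most core genes lie left of 0, the immunoproteasome genes lie near 0, and several genes have probe sets far apart, such as Psma5 from -0.94 to -0.08.

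Other probe sets of the same gene did not always show the same cohort difference. Of 21 proteasome genes with more than 1 probe set, 2, Psma6 and Psme3, had cohort calls of both signs, and 9 had genotype differences of both signs. Psma5 gave -0.40, -0.94 and -0.08 on its 3 probe sets. Psmc2 and Psmc4, ATPases, were at 0.06 and 0.05 on the probe sets used and were called at -0.51 and -0.59 on their others. Psmd11 was above 0 on all 6 of its probe sets, from 0.03 to 0.49. Of the 37 other probe sets 9 were called lower in M.C, 24.3% against 17% of all probe sets, and 6 higher, 16.2% against 15.3%. Averaging each gene's probe sets turned 4 signs: Psmc2 to -0.22 and Psmc4 to -0.27, both then called, Psme3 to 0.03, its call lost, and Psme4 to -0.04, not called either way.

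Markers of other cells moved with the cohorts as well. All 8 measured mature oligodendrocyte genes were called lower in M.C, against 17% of all probe sets, with a median of -0.82. Their mean level ran from -0.67 to 0.15 in M.C arrays and from 0.06 to 0.72 in Mith arrays. Of 5 thalamic genes 4 were called lower in M.C, against the same 17%, with a median of -0.60. Of 6 vessel genes 4 were called higher, against 15.3% of all probe sets, with a median of 0.23. The part of these cohort differences in the proteasome values was not tested.

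Genes that work with the proteasome were read from a list of 49, of which 37 had a single-gene probe set, and by genotype 1 was called higher and 0 lower, 2.7% against 2.55% of all probe sets and so near the background. That gene is Ufd1, a partner of the segregase Vcp that extracts ubiquitinated proteins. Its signals were 7.45, 7.71, 7.77 and 7.83 in M.C R6/2 and 7.51, 7.51, 7.37 and 7.32 in M.C wild-type. In Mith they were 8.34, 8.52 and 8.51 in R6/2 and 8.22, 8.08 and 8.35 in wild-type. R6/2 replicate 1 is below 2 wild-type arrays of M.C and R6/2 replicate 5 just below 1 wild-type array of Mith. The difference was 0.25 ± 0.07, adjusted p = 0.0493. Dropping 1 array at a time ended the call in 12 of 14 fits, where the difference ran from 0.23 to 0.30 and the adjusted p from 0.0278 to 0.113, and it was lost with the Actb covariate (0.32 ± 0.08, adjusted p = 0.137). The ubiquitin shuttle Ubqln1 was at -0.16 ± 0.07 (adjusted p = 0.252).

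Subunit and assembly genes without a Psm symbol were read from the same list. Sem1, a small lid subunit, was at 0.16 ± 0.12 by genotype, and Pomp, the chaperone that matures the core, at 0.14 ± 0.09. Both were called lower in M.C, at -0.51 (adjusted p = 0.00469) and -0.44 (adjusted p = 0.00111). Usp14 and Ube3c, ubiquitin enzymes bound to the proteasome, were at 0.10 ± 0.05 and 0.05 ± 0.07 by genotype. The regulators Nfe2l1 and Nfe2l2 were at -0.10 ± 0.07 and -0.10 ± 0.10, and Nfe2l1 was called higher in M.C (0.24, adjusted p = 0.0112), where 18 proteasome genes were lower. Stub1, a ubiquitin ligase of chaperone clients, was at 0.08 ± 0.07 and Ube2d2a, a conjugating enzyme, at -0.08 ± 0.07. Over the 37 genes the cohort calls were 7 higher, 18.9% against 15.3% of all probe sets, and 9 lower, 24.3% against 17%, with a median of 0.01.

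Antigen presentation and interferon genes, which interferon induces with Psmb10 and Psme1, were not called by genotype: 0 of 13 passed, with a median of 0.04. Ifit3 and Irf1, an interferon-induced gene and a transcription factor of that response, had the smallest p, at 0.20 ± 0.07 (adjusted p = 0.166) and 0.11 ± 0.05 (adjusted p = 0.308). B2m, the light chain of class I molecules, was at 0.12 ± 0.13 and H2-K1, a heavy chain, at -0.11 ± 0.07. By cohort 4 of the 13 were called higher in M.C, where 15.3% of all probe sets were. B2m alone was called lower, where 17% of all probe sets were.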

How the data were processed

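Striatal RNA of 7 R6/2 and 7 wild-type mouse arrays was analysed from the deposited series table of log2 probe set values. Values of 2.96 to 14.5 show the log2 scale. The authors' summary and normalization method is not given in the sources consulted, and raw scans were not used. Of 22690 probe sets, 64 controls were left out, and arrays were shifted to the same median because the deposited medians spanned 0.108. Symbols came from the platform table, updated by gene ID. 20380 probe sets carried 1 symbol, 691 several and 1555 none. Groups came from the source labels and cohorts from the titles.

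Each contrast was fitted with limma 3.58.1 in R 4.3.3 (moderated, two-sided, Benjamini-Hochberg adjustment over 22626 probe sets). The genotype fit had cohort as a term, the cohort fit had genotype as a term, and the interaction and each cohort alone were also fitted. ± is the SE unless SD is named. The calculation was tested on simulated data. The members and gene lists were chosen with earlier results of these data known, so a list is described by counts and medians without a test of the list. The interferon response letters were added after the promoters were searched for the other motifs. Named genes were those called in any fit, the member of smallest p in each role class, and every immunoproteasome, activator and inhibitor gene. Of the related list they were the called genes and the 2 of smallest p in each line of the list. B2m, H2-K1, the further subunits compared by role and the other probe sets quoted were chosen after their values were seen. Alternatives covered the scale, filters on dim probe sets, variance settings, array weights, the Actb covariate, the rule for a gene's probe set, each cohort alone and each array left out. Protein sequences were not used here.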

Additional observations from a re-analysis of the deposited data

Results flagged for a closer look

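1 of 96 groups of 4 values held a value far from the others. Psmc1, an ATPase of the base, was at 7.74 in R6/2 replicate 4 of M.C, the lowest of its group, where the nearest of the other 3 arrays was at 8.43. The gap is 0.942 of the group's range, above Dixon's 95% critical value for 4 values. Chance gives about 1 such group in 20. The same array stands apart from its cohort over all probe sets, as given with the array values.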

How the results depend on the processing

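Over both cohorts 0 of 46 genes were called by genotype under every alternative except array weights, which called 2. With 1 array left out the count ran from 0 to 2, the 2 (Psmb10, Psme1) coming only without R6/2 replicate 4. At an unadjusted p under 0.05 there were 6 with all arrays. The count in M.C rose to 1 with the Actb covariate (Psmc1), and the counts in Mith and in the interaction were 0 under every alternative. The cohort count of 20 ran from 19 to 22 with 1 array left out and was 9 in wild-type arrays alone, a setting chosen after seeing the data.

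Class medians of the genotype difference took other values than over both cohorts with all arrays in these cases, among others. With the Actb covariate they were 0.014 (alpha ring), 0.0896 (immunoproteasome), -0.00918 (ATPase ring) and -0.0546 (chaperones). In M.C alone they were 0.00517, 0.0171, -0.0583 and -0.0454 for the same classes, with 0.0126 for the beta ring and -0.00596 for the lid. In Mith alone they were 0.32, 0.0921, 0.26 and 0.148, with 0.269 for the beta ring and 0.137 for the lid. The immunoproteasome median was 0.118 among brighter probe sets, 0.0131 with array weights and 0.0227 to 0.0776 with 1 array left out. The activator median was 0.102 with probe sets averaged per gene. The cause was not tested.

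Of 1243 values of single genes by genotype under an alternative, 1239 kept their side of the threshold, 4 gained a call and 98 uncalled ones changed sign. Of 1147 by cohort, 31 lost the call, 22 gained it and 3 reversed, all with probe sets averaged: Psmc2 (-0.22), Psmc4 (-0.27) and Psme3 (0.0317). No paired analysis was possible because the titles give the genotypes no shared replicate numbers. The number of arrays and the unstated normalization limit every value.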
